A study of Halocynthia roretzi with 24 samples.

Results

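The genes described here are 250 zygotic gene models of the ascidian *Halocynthia roretzi* that were biased to the vegetal hemisphere, out of 16078 models in the expression table. They were chosen on group means of RPKM, a read density scaled to the exon length of a model and to the size of the library. A model was kept when its mean was below 1 RPKM in all 3 groups of 8-cell libraries, when at least 1 group of 110-cell libraries reached 5 RPKM, and when the animal mean plus 1 was at most 0.5 of the vegetal mean plus 1 at 110 cells. The rule leaves out 8 identifiers by name, of which 7 met these limits. Of 484 models that met the limits on level alone, 167 had the mirrored ratio, at least 2-fold higher in animal hemispheres, and 60 lay between the limits. Members are named by their identifiers without the shared prefix, so that S575.g07280 stands for a model on scaffold S575.

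The libraries came from wild-type embryos of the southwestern Japanese population, from stock bred for several years in an inland laboratory. Whole embryos, vegetal hemispheres and animal hemispheres were sampled at 110 cells and at 8 cells. Each of these 6 groups holds 4 libraries, with the numbers 2 to 5 in their titles, so 24 in all. How the hemispheres were separated and what a number marks is not stated in the labels. The spread and the p-values therefore describe variation between these libraries, which may be technical. Per library, the depth inferred from the values was 3.64 to 9.17 M (mega) reads. In such bulk samples, fewer cells that express a gene and less RNA per cell cannot be told apart.

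In ascidians the vegetal hemisphere gives rise to endoderm, notochord, muscle and mesenchyme, and the animal hemisphere mainly to epidermis and parts of the nervous system. Early cleavage runs on maternal transcripts stored in the egg, and the embryo's own genes are switched on during cleavage. Nuclear beta-catenin in vegetal cells is known as an early switch for vegetal gene expression in these embryos. The annotation gives most models the identifier of a best-matching protein but no gene name, so no function is assigned to any of them. Of the members, 202 had a best match starting with KH, the form used for gene models of the ascidian *Ciona*, 7 a protein record and 41 no match.

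At 110 cells the members had a median of 12.8 RPKM in vegetal hemispheres, with quartiles of 7.65 and 25.5 RPKM. In animal hemispheres their median was 0.432 RPKM, with quartiles of 0.193 and 1.0003 RPKM. The vegetal mean reached 10 RPKM in 154 members, 20 RPKM in 80 and 50 RPKM in 16, and it was under 5 RPKM in 2 members, which entered through the whole embryos. The ratio of vegetal to animal means, each plus 1 RPKM, had a median of 9.01 and reached 53.9. It was at least 4 in 217 members, at least 8 in 142 and at least 16 in 62. Most of the list therefore lay well inside the ratio limit, as the plot of vegetal against animal means shows. These values chose the members and are given without a test.

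**Figure D1:**
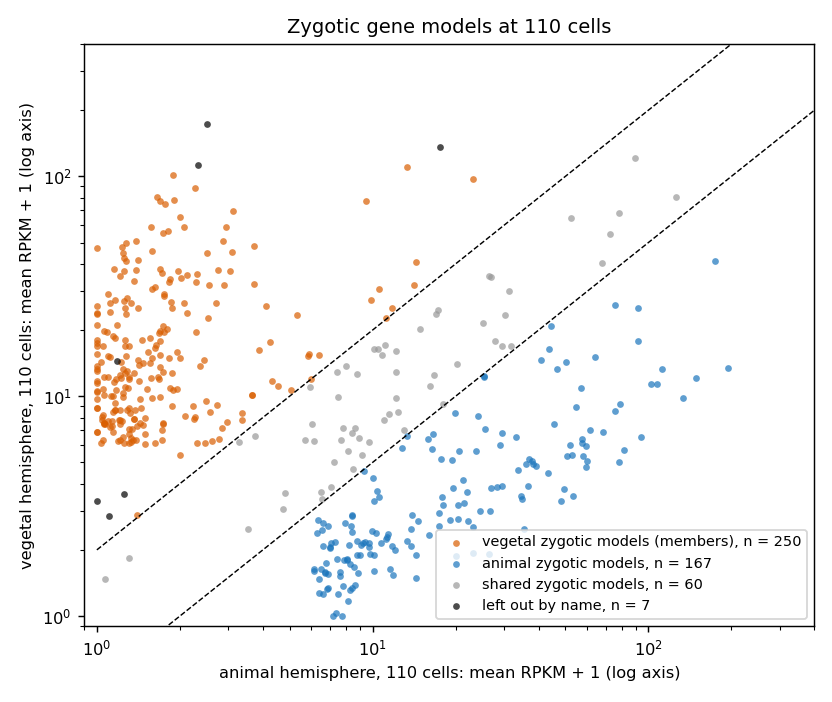
Mean RPKM plus 1 in vegetal hemispheres (vertical, log axis) against animal hemispheres (horizontal, log axis) at 110 cells, 1 point per zygotic model, with dashed lines at the ratio limits. The 250 members sit in the upper left, most of them near the left edge, where the animal mean is near 0.

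Summed over the members at 110 cells, RPKM made up 0.458% ± 0.160 of all RPKM in whole embryos, 0.982% ± 0.262 in vegetal libraries and 0.0580% ± 0.0211 in animal libraries (SD, n = 4). At 8 cells the sum was 0.00670% ± 0.00182 in whole embryos, 0.00783% ± 0.00065 in vegetal libraries and 0.00775% ± 0.00139 in animal libraries. Traces at 8 cells were scattered, and 59 members were listed at 0 in all 12 of those libraries, while 63 were above 0 in at least 6 of them. The median member was above 0 in 2.5 of the 12 libraries.

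The highest member was S80.g01497 (scaffold S80, 39836 to 40220, minus strand, no match named). It had 116, 90.4, 69.6 and 161 RPKM in vegetal libraries of numbers 2 to 5, against 9.20, 15.7, 6.44 and 18.1 RPKM in animal libraries. Every vegetal library was above every animal library, but the animal level was far from 0. Its neighbour on the scaffold is S80.g04926, 1 of the 8 identifiers left out by name. S423.g11821 (S423, 1 to 2864, plus strand, best match KH.C5.485) had 129, 71.5, 55.8 and 148 RPKM in vegetal libraries, against 0, 0.552, 0 and 3.01 RPKM in animal libraries. Here the groups were far apart, and the only animal library above 1 RPKM was number 5. S38.g11225 (S38, 169421 to 170712, plus strand, with a protein record as its match) had 104.4, 111, 79.4 and 90.5 RPKM in vegetal libraries, against 30.99, 22.8, 18.9 and 15.4 RPKM in animal libraries. It had the highest animal mean of all members, at 22.03 ± 6.69 RPKM (SD, n = 4).

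Several other high members were close to 0 in animal hemispheres. S184.g04760 (S184, 52093 to 54874, minus strand, KH.L119.3) averaged 76.9 ± 16.9 RPKM over vegetal and 0.912 ± 0.847 RPKM over animal libraries (SD, n = 4). S1797.g04191 (S1797, 1 to 2946, plus strand, KH.L157.10) averaged 76.4 ± 41.5 RPKM over vegetal and 0.693 ± 0.399 RPKM over animal libraries. S420.g05435 (S420, 81977 to 84374, minus strand, KH.C3.567) had 78.3, 76.1, 77.2 and 62.3 RPKM in vegetal libraries, against 0, 0.826, 0 and 2.25 RPKM in animal libraries. Its vegetal libraries were far more even than those of S1797.g04191, where number 2 was about 3 times number 3 or 4. More animal signal was seen for S157.g05829 (S157, 115129 to 120062, plus strand, KH.C4.84), which had 54.9, 94.9, 74.7 and 79.2 RPKM in vegetal libraries, against 11.2, 7.33, 2.81 and 12.6 RPKM in animal libraries. S226.g15893 and its downstream neighbour S226.g13127 (S226, 6013 to 9046 and 10809 to 12538, plus strand, no match named) averaged 68.4 ± 26.6 and 49.99 ± 21.7 RPKM over vegetal libraries, against 2.12 ± 0.922 and 1.87 ± 1.06 RPKM over animal libraries.

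**Figure D2:**
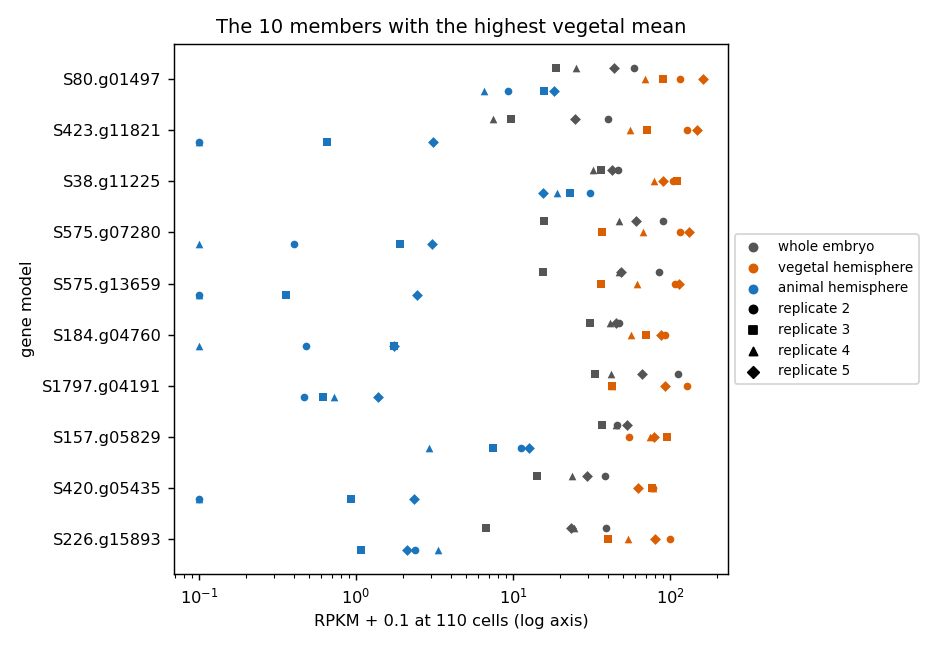
RPKM plus 0.1 (log axis) of the 10 members with the highest vegetal mean, in each 110-cell library of whole embryos, vegetal hemispheres and animal hemispheres, with the replicate number as the marker shape. Vegetal libraries lie right of animal libraries in all 10 members, and whole embryos lie between or within the vegetal range.

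Across the members, 223 of 250 had every vegetal library above every animal library, where 5.86% of all tested models did. In 239 members the vegetal library was above the animal library of the same number in all 4 numbers, where 13.3% of tested models did. In limma, 249 members passed the filter on low values, and 235 of them were called higher in vegetal hemispheres at an adjusted p under 0.05, where 5.51% of all tested models were. None were called lower, where 3.64% of tested models were. The 14 tested members without a call included 3 on scaffold S766, 3 on scaffold S4, S661.g01064 and S413.g14930. The rule used this contrast, so the counts describe the list and test nothing.

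The rule was also read out in libraries left out of its means, as a description of the list. This is no independent check, since the limits and the names left out were set with all 4 numbers known. The background is that of all tested models, not of zygotic models alone. When the same rule was applied to 3 of the 4 numbers and read out in the number left out, the ratio was again at most 0.5 in 221 of 242 models for number 2, where 8.33% of all tested models had such a ratio. It was so in 238 of 265 models for number 3 (background 7.77%), in 244 of 271 for number 4 (7.36%) and in 219 of 236 for number 5 (8.07%). The vegetal library left out was not above its animal library in 10, 11, 11 and 6 of these models. The median ratio in the number left out was 9.42, 7.41, 6.79 and 9.23 for numbers 2 to 5. Numbers 3 and 4 thus gave the smaller ratios, and their libraries also held a smaller share of members' reads, as described next. Of the models chosen without a number, 223 to 238 were among the 250 members.

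The members' level differed between the numbers in the same way in both hemispheres and in the animal zygotic models. In vegetal libraries the members made up 1.23%, 0.756%, 0.754% and 1.19% of all RPKM for numbers 2 to 5. In whole embryos they made up 0.658%, 0.285%, 0.385% and 0.502%. The 167 animal zygotic models made up 1.22%, 0.688%, 0.552% and 1.26% in animal libraries. Numbers 2 and 5 were thus above numbers 3 and 4 for both lists and in each region where they were high, as the plot of summed RPKM by library shows. The labels give no age or time beside the cell stage, so the part of embryo age or batch in this was not tested. Of the members, 93 had their highest vegetal library in number 2 and 99 in number 5, against 37 in number 3 and 21 in number 4. In percent this was 37.2, 14.8, 8.4 and 39.6 for numbers 2 to 5, where all tested models gave 27.3, 23.5, 26.2 and 23.1. In whole embryos number 2 was the highest library in 139 members, or 55.6%, where it was so in 24.5% of all tested models. Number 3 was the lowest whole-embryo library in 144 members, but the share over all tested models was not worked out for the lowest library. The median member had a highest vegetal library 2.80 times its lowest, and a highest whole-embryo library 3.08 times its lowest, among the 245 and 238 members above 0 in all 4. For all tested models with a group mean of at least 5 RPKM these medians were 1.72 and 1.56.

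**Figure D3:**
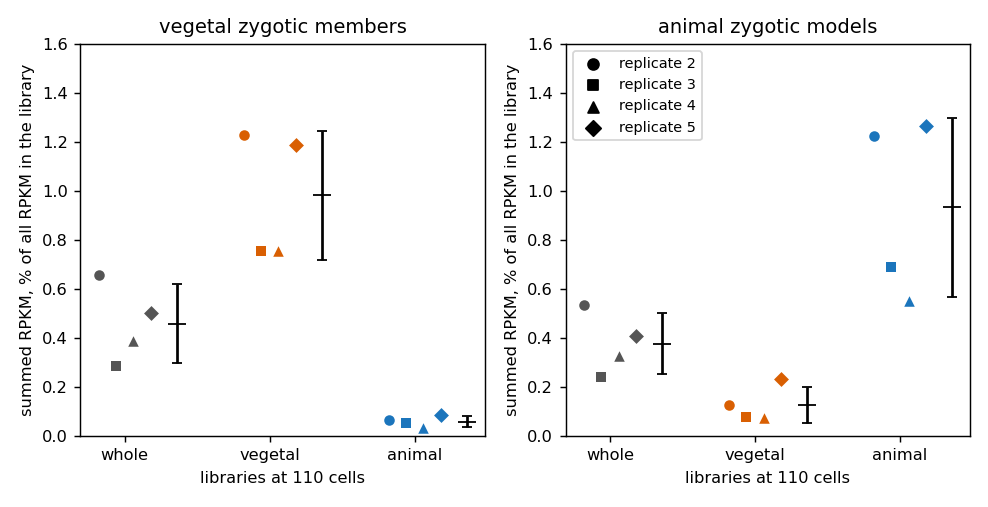
Summed RPKM as a percentage of all RPKM in each 110-cell library, for the 250 members (left) and the 167 animal zygotic models (right), with the mean and SD of 4 libraries as bars. Members stand at 0.754% to 1.23% in vegetal libraries and under 0.1% in animal libraries, and numbers 2 and 5 are above numbers 3 and 4 in the region where each list is high.

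Animal libraries differed in how many members they showed at all. Members listed at 0 numbered 106, 107, 133 and 48 in animal libraries of numbers 2 to 5, against 2, 2, 2 and 1 in vegetal libraries. Members at 1 RPKM or more numbered 63, 71, 37 and 98 in the same animal libraries. Number 5 had the most members above 0, and at 7.55 M (mega) reads it also had the largest inferred depth of the 4 animal libraries. In the other direction, the vegetal library of number 5 held the most RPKM of animal zygotic models, 0.231% against 0.0719% to 0.127% in the other vegetal libraries. Of all models in the table, 18.25%, 20.64%, 19.93% and 16.66% were listed at 0 in animal libraries of numbers 2 to 5. In vegetal libraries this was 19.37%, 18.73%, 17.9% and 15.57%. Number 5 thus stood out in both hemispheres, and it also had the fewest of all models at 0 in each. The parts of depth and of carry-over between hemispheres in this were not tested. Over all 4 animal libraries 187 members had a mean under 1 RPKM, 10 had at least 5 RPKM and 21 were listed at 0 throughout. Among the 21, S108.g13183 (S108, 22095 to 23032, plus strand, KH.C4.697) had 64.3, 24.01, 42.2 and 54.0 RPKM in vegetal libraries, the highest of this kind. S1871.g13278 (S1871, 1992 to 2315, minus strand, KH.L154.17) had 36.2, 5.64, 11.8 and 37.4 RPKM, and S2004.g01562 (S2004, 1 to 1868, minus strand, KH.C9.208) 5.79, 35.6, 23.8 and 14.96 RPKM. In number 3, S1871.g13278 had its lowest and S2004.g01562 its highest vegetal library.

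A smaller set of members was also detected in animal libraries, and the part of carry-over between hemispheres in this was not tested. Between the stages, 33 of 249 tested members were called higher at 110 than at 8 cells in animal hemispheres, where 7.15% of all tested models were. None were called lower, where 5.89% of tested models were, but the rule's limit at 8 cells leaves little room for a decrease. Of the 33, 25 were also called higher in vegetal than in animal hemispheres. The animal means of the 33 at 110 cells ran from 0.912 to 22.03 RPKM with a median of 3.33 RPKM. The largest changes were those of S38.g11225 (log2 3.74 ± 0.35 SE) and S80.g01497 (log2 3.31 ± 0.41 SE). Of the 167 animal zygotic models 166 and of the 60 shared models 54 were called in this comparison, and both stage means enter the rules for all 3 lists. The members' count fell to 21 without replicate 3 and to 14 without replicate 5 of every group, so it rests partly on those libraries. With a pseudocount of 0.1 it was 62 and in a fit of the compared groups alone 17 of 25 tested.

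At 8 cells the members' levels were too low for a useful test between regions, since the rule holds every 8-cell mean below 1 RPKM. In a fit of the compared 8-cell groups alone, 1 of them passed the filter on low values. Of the 249 members tested with all groups, 0 were called between vegetal and animal hemispheres in limma, where 0.118% of all tested models were called vegetal-higher and 0% animal-higher. An unadjusted p under 0.05 was found for 0 members and for 345 of all 12703 tested models, and for 7 members and 401 models with a pseudocount of 0.1. These counts are given as a description and say nothing on whether the members differed between regions at 8 cells. A floor of 3 reads corresponded to 0.219 to 0.444 RPKM in the 8-cell libraries for a model with 1.5 kb of exons.

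Whole embryos at 110 cells stood between the hemispheres for most members. In limma 190 of 249 members were called higher in whole embryos than in animal hemispheres, where 2.94% of all tested models were. Of the members, 99 were called lower in whole embryos than in vegetal hemispheres, where 1.62% of tested models were, and 1 was called higher, where 0.992% were. Every whole-embryo library was above every animal library in 191 of 250 members (4.72% of tested models), and every vegetal library was above every whole-embryo library in 92 (2.68%). The hemisphere means in these contrasts were used by the rule, so the counts are descriptions. The count of 99 was 44, 55 and 56 without replicate 3, 4 or 5 of every group, 13 with a pseudocount of 0.1 and 32 in a fit of the compared groups alone.

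The whole-embryo level of the median member was 0.421 of its vegetal level and 0.782 of the mean of both hemispheres. Number by number, the median ratio to the hemisphere mean was 0.948, 0.681, 0.899 and 0.705 for numbers 2 to 5, or 0.808 ± 0.135 (SD, n = 4). For animal zygotic models it was 0.723, 0.444, 0.991 and 0.478, or 0.659 ± 0.254, and for shared zygotic models 1.11, 0.706, 1.15 and 0.793, or 0.940 ± 0.222. Numbers 3 and 5 were below numbers 2 and 4 in all 3 lists, the ranges over numbers overlapped, and the differences between lists were not tested. The plot of the ratio shows wide and overlapping distributions. RPKM is a share of each library, and the hemispheres need not hold equal amounts of RNA, so a ratio of 1 is not a fixed point.

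**Figure D4:**
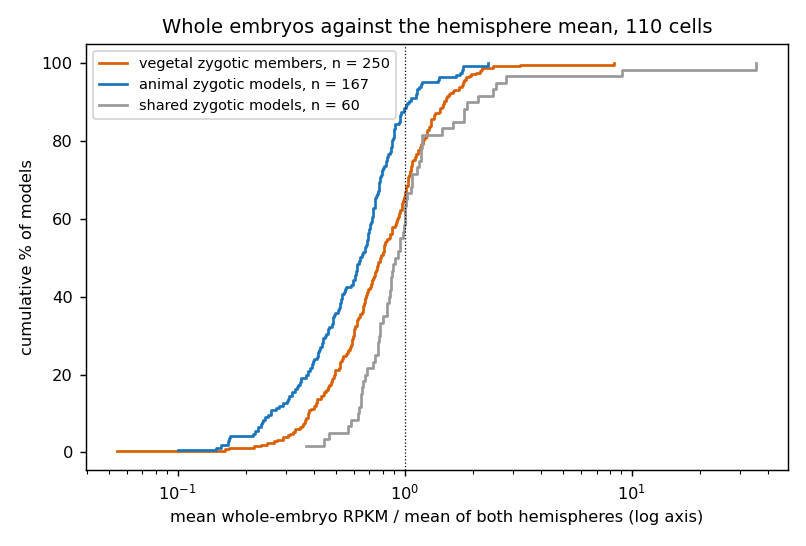
Cumulative percentage of models (vertical) by the ratio of the mean whole-embryo RPKM to the mean of both hemispheres at 110 cells (horizontal, log axis), for the 250 members, 167 animal zygotic and 60 shared zygotic models. The medians are 0.782 for members, 0.638 for animal zygotic and 0.918 for shared zygotic models, and the curves overlap over most of their range.

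A few members departed from this order. S413.g14930 (S413, 10872 to 13932, plus strand, KH.S544.3) had 5.08, 10.6, 15.2 and 7.37 RPKM in whole embryos, against 0, 4.07, 3.21 and 0.301 RPKM in vegetal libraries. All its whole-embryo libraries were above all vegetal libraries, and it was the 1 member called higher in whole embryos. It had 0.230, 0.984, 0 and 0.358 RPKM in animal libraries, so neither hemisphere held the level of the whole embryos, and its place among vegetal genes rests on low values. S264.g00833 (S264, 130352 to 133934, plus strand, KH.L19.12) had 15.3, 12.01, 17.7 and 18.7 RPKM in whole embryos, against 6.04, 10.99, 9.16 and 12.5 RPKM in vegetal libraries. These ranges overlapped in a single pair of libraries, and its animal libraries held 0 to 0.349 RPKM. In 11 members the whole-embryo mean was above the vegetal mean, and in 5 it was below the animal mean.

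At the other end were members that whole embryos hardly showed. S196.g08088 (S196, 147651 to 147884, plus strand, a single exon, no match named) had 9.79, 6.41, 5.71 and 8.70 RPKM in vegetal libraries, but in whole embryos it was listed at 0 in all libraries except number 3, at 0.849 RPKM. Its animal libraries were at 0 except number 2, at 0.665 RPKM. This short model has 234 exon bases, so its low values stand for few reads. It overlaps S196.g10692 on the opposite strand. Without strand information, reads from these models cannot be told apart. S128.g13119 (S128, 54244 to 57216, minus strand, KH.C5.150) had 0.296, 0.738, 0.814 and 0.597 RPKM in whole embryos, against 4.26, 6.97, 4.03 and 13.7 RPKM in vegetal libraries. S560.g04382 (S560, 25831 to 29204, minus strand, KH.C10.260) had 0.9996, 2.18, 0.458 and 0.503 RPKM in whole embryos, against 3.59, 7.83, 5.23 and 21.7 RPKM in vegetal libraries and 0 in all animal libraries. In all 3 members every vegetal library was above every whole-embryo library.

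Members often shared a best match with one another. There were 24 best matches held by at least 2 members, covering 59 members or 23.6% of the list, and 11 of the 24 had all their members on 1 scaffold. Among the 167 animal zygotic models the share was 12.6%, and among the 60 shared zygotic models 3.33%. The lists differ in size, and a larger list shares matches more easily. Counted against all models in the table, 59.6% of members, 54.5% of animal zygotic and 43.3% of shared zygotic models had a best match that another model also named, where 35.4% of all models did. No test was made of these shares. How reads matching several models were counted is not stated in the sources at hand.

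The largest family was that of best match KH.C8.649, with 8 members among its 10 models. Summed over the 8, it stood at 569, 179, 222 and 505 RPKM in vegetal libraries of numbers 2 to 5, which was 9.18%, 4.65%, 5.86% and 8.32% of the members' total. In whole embryos the sum was 396, 66.5, 167 and 263 RPKM. In all 8 members the whole-embryo library was highest in number 2 and lowest in number 3, and in the vegetal hemisphere numbers 3 and 4 were the lowest and numbers 2 and 5 the highest. The family thus followed the pattern of the whole list over the numbers, with a wider range.

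Its members lay on 5 scaffolds. S575.g07280 and S575.g13659 follow each other on the plus strand of S575 (41720 to 43051 and 44926 to 46360). S575.g07280 had 116, 36.8, 67.1 and 131 RPKM in vegetal libraries, against 0.303, 1.81, 0 and 2.94 RPKM in animal libraries. S575.g13659 had 108, 36.3, 61.1 and 114 RPKM, against 0, 0.259, 0 and 2.35 RPKM. The neighbours were close to each other in every vegetal library. On scaffold S1, 3 members lie in a row on the minus strand between 953852 and 961792, S1.g06477, S1.g06718 and S1.g06881, with vegetal means of 26.1 ± 17.3, 49.7 ± 37.8 and 35.9 ± 24.7 RPKM (SD, n = 4). Their animal means were 0.252 to 0.382 RPKM. S45.g15766, S22.g04056 and S348.g09995 stood at 36.7 ± 17.1, 28.1 ± 14.97 and 24.6 ± 11.9 RPKM in vegetal hemispheres, and at 0.154, 0.0997 and 0 RPKM in animal hemispheres. S348.g09995 was the only one of the 8 whose whole-embryo mean, 26.3 ± 16.1 RPKM, was above its vegetal mean.

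The models of this family may share reads. Of the 8 members 5 have exons of 1137 bases in all. S1.g06718 and S1.g06881 are both listed at 6.19 RPKM in the whole-embryo library of number 3, and are also equal in number 5. In the other whole-embryo libraries and in every vegetal library they differ, with S1.g06718 the higher. Equal length and equal values in some libraries do not show that reads were shared. Sharing of reads was not tested, so the levels of single models are uncertain. The other 2 models of the family behaved otherwise. S14.g02421 averaged 82.4 ± 25.4 RPKM over vegetal and 66.6 ± 25.03 RPKM over animal libraries at 110 cells, and 141 RPKM over each hemisphere at 8 cells. At 8 cells the rule holds the means of all members below 1 RPKM. S4.g08850, which also has 1137 exon bases, was listed at 0 in every hemisphere library at 110 cells. Of the 10 models 8 met the rule. The level of S14.g02421 at 8 cells kept it out of the list whatever its regional pattern, so this contrast follows from the rule.

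**Figure D5:**
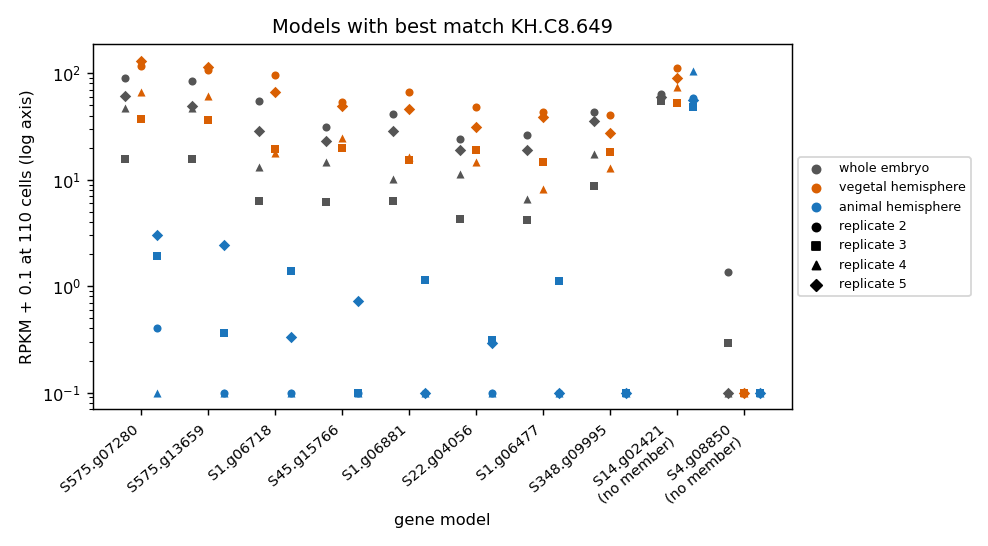
RPKM plus 0.1 (log axis) in each 110-cell library of the 10 models with best match KH.C8.649, for whole embryos, vegetal hemispheres and animal hemispheres, with the replicate number as the marker shape. In the 8 members all vegetal libraries lie above all animal libraries, while S14.g02421 lies at a like level in all regions and S4.g08850 near 0.

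Other families repeated this layout on a smaller scale. On scaffold S425, 3 members with best match KH.C14.129, S425.g13702, S425.g06453 and S425.g05824, follow each other on the plus strand from 14319 to 24485, and S425.g09009 (24617 to 25019, KH.C3.814) comes next. Their vegetal means were 19.96 ± 13.5, 32.02 ± 15.1, 36.4 ± 34.2 and 31.03 ± 12.5 RPKM, against 0.738, 1.29, 1.75 and 1.54 RPKM in animal hemispheres. All 4 were highest in number 2 and lower in number 3 than in number 5. No other model in the table names KH.C14.129.

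On scaffold S11, S11.g13693 (693380 to 694678, KH.C2.209), S11.g09556 (696545 to 697668, KH.C1.1186) and S11.g05606 (700059 to 705175, a protein record) follow each other on the minus strand. They averaged 24.8 ± 15.5, 25.4 ± 18.6 and 36.04 ± 24.6 RPKM in vegetal hemispheres, against 3.11 ± 2.62, 1.07 ± 1.06 and 2.04 ± 1.43 RPKM in animal hemispheres. S1447.g08436 (KH.C1.1186) had 133, 33.3, 21.2 and 70.8 RPKM in vegetal libraries, and S876.g04000 (KH.C2.209) 111, 14.3, 24.7 and 38.4 RPKM. The short neighbours S2205.g15393 and S2205.g06396 (KH.C1.1186) were listed at 0 in all animal libraries and stood at 12.02 ± 9.21 and 15.9 ± 18.2 RPKM in vegetal hemispheres. The same 2 best matches are also named by S694.g13832 and S694.g06825, which lie near each other on scaffold S694. At 110 cells these averaged 544 and 177 RPKM over vegetal libraries, against 431 and 154 RPKM over animal libraries, and were no members. At 8 cells they averaged 409 and 177 RPKM over vegetal libraries, which kept them out of the list whatever their regional pattern. Further models with these matches were no members either. S185.g05349 (KH.C2.209) averaged 24.9 RPKM over vegetal and 21.5 RPKM over animal libraries at 110 cells. S11.g15235 (KH.C1.1186), also on scaffold S11, averaged 2.15 and 2.96 RPKM, and S2860.g01024 (KH.C1.1186) was listed at 0 in both hemispheres. At 8 cells S185.g05349 and S11.g15235 averaged 21.5 and 3.49 RPKM over vegetal libraries, above the rule's limit. S2860.g01024 reached 0.651 RPKM in whole embryos at 110 cells, below the rule's limit on level. The contrasts with the members thus follow from the rule.

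A pair with best match KH.L54.2 was also detected in animal libraries. S661.g01064 (S661, 37304 to 38170, minus strand) had 68.5, 16.2, 19.7 and 54.2 RPKM in vegetal libraries, against 7.29, 6.24, 15.3 and 24.5 RPKM in animal libraries. The groups overlapped. S1557.g14671 (S1557, 1882 to 2748, minus strand) followed it at a lower level, with 49.4, 11.7, 14.8 and 42.9 RPKM against 5.72, 3.71, 11.7 and 17.2 RPKM. Both are single-exon models of 867 bases, and 11 further models name the same match, so shared reads cannot be told apart. S153.g15969 and S153.g16075 (S153, 190674 to 191355 and 191422 to 192101, plus strand, KH.C3.406) were close to 0 in animal hemispheres. They stood at 22.99 ± 15.2 and 41.5 ± 36.6 RPKM in vegetal hemispheres, with 0 in all animal libraries for the first and 0.252 ± 0.504 RPKM for the second.

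Some members lay side by side on scaffolds, with or without a shared match. In all, 75 members lay next to another member with no model between them, in 32 runs. Of these runs 24 had 2 members, 5 had 3 and 3 had 4, and 23 lay on 1 strand. A shared best match within the run was found in 15 of the 32. The 75 are 30.0% of members, against 38.9% of the 167 animal zygotic and 35.0% of the 60 shared zygotic models next to a model of their own list (not tested). The share was thus lowest for the members, and no share over all models was worked out. The 250 members were spread over 171 scaffolds, and the most on 1 scaffold was 5. In 18 members an exon overlapped an exon of a model on the other strand, and in 18 one on the same strand, so those levels may hold reads of the neighbour.

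Members had a median of 5 exons and 1212 exon bases, against 5 and 1212 in animal zygotic, 3 and 648 in shared zygotic and 6 and 1419 in all models. Single-exon models made up 8.0% of members, 9.58% of animal zygotic, 13.3% of shared zygotic and 12.3% of all models. No match was named for 16.4% of members, 22.2% of animal zygotic, 33.3% of shared zygotic and 24.9% of all models. These shares were not tested.

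The spread over vegetal libraries ranged widely among members. The coefficient of variation over the 4 vegetal libraries had a median of 0.448, with quartiles of 0.295 and 0.658. S81.g02871 (S81, 228831 to 229884, minus strand, no match named) was the most even, with 6.99, 7.34, 6.97 and 7.12 RPKM in vegetal libraries, against 2.46, 0, 0.359 and 1.501 RPKM in animal libraries. An exon of it overlaps S81.g08050 on the opposite strand. S81.g04498 on the same scaffold (181288 to 186512, minus strand, KH.C9.450) followed with 25.1, 23.5, 25.1 and 28.3 RPKM, against 0, 0.462, 0 and 0 RPKM. These members did not show the low values of numbers 3 and 4. S104.g11931 (S104, 222978 to 224092, minus strand, KH.L108.8) was among the least even, with 28.6, 2.83, 4.25 and 2.31 RPKM in vegetal libraries and 0 in all animal libraries. S27.g04253 (S27, 457730 to 458228, minus strand, KH.L84.3) had 43.0, 2.54, 0 and 12.4 RPKM in vegetal libraries and 0 in all animal libraries. In both, number 2 carried most of the mean.

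One member, S2456.g03490 (S2456, 934 to 1413, minus strand, a protein record), was seen in number 2 alone. It had 29.7 RPKM in the vegetal library, 6.26 RPKM in the animal library and 14.6 RPKM in the whole embryos of that number, and was listed at 0 in all other 110-cell libraries. It was the 1 member below the filter, and its place in the list rests on 1 number.

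The members nearest to the limits were as follows. S4.g11169 (ratio 0.498) and S766.g04762 (0.494) lay just inside the ratio limit, and S229.g05508 (0.532) and S4.g02559 (0.540) just outside it. S4.g11169, a single exon of 222 bases, had 2.07, 4.51, 17.3 and 20.2 RPKM in vegetal libraries, against 4.91, 9.60, 0 and 5.45 RPKM in animal libraries, so that 2 of its 4 numbers went the other way. At the level limit, S49.g09624 and S145.g10427 reached 5.07 and 5.10 RPKM, and S81.g08050 and S39.g13378 missed it at just under 5 RPKM. At the 8-cell limit, S38.g11225 and S196.g08088 stood at 0.987 and 0.976 RPKM in their highest 8-cell group, while S89.g04657 and S125.g12348 stood at 1.01 and 1.08 RPKM and were left out. S125.g12348 had a vegetal mean of 29.9 RPKM at 110 cells, against 2.43 RPKM over animal libraries.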

How the data were processed

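Expression was measured by RNA sequencing of total RNA in 24 libraries. The authors deposited RPKM values for 16078 gene models and an annotation of 16082 models on numbered scaffolds, which gives the start and end positions printed here. HISAT2 is named as a tool, per the submitters' processing notes. Its version, the read counter and the build were not given in the sources used here. Per the labels' protocols these libraries did not keep strand. Since RPKM is a share of each library, a change in total RNA is not visible. The depth of a library was read from 1-read steps in its low RPKM values times exon length, at 3.64 to 9.17 M (mega) reads per library. The share of low values that fell within 0.1 reads of an integer was 61.6% to 71.7%, so no count model was used. A share of 20% by chance holds for a depth set in advance. Each depth here was picked for the best fit to whole reads on the same values, so 20% is no background for it. A floor of 3 reads stood for 0.218 to 0.550 RPKM for exons totalling 1.5 kb, which allows for counting error alone. The floor is higher in RPKM for shorter models, such as S196.g08088 with 234 exon bases and S4.g11169 with 222.

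The tool was limma 3.58.1 (R 4.3.3), with values as log2(RPKM + 1), which understates changes of low models, for the 12703 models that reached 1 RPKM in 4 or more libraries. All 6 groups entered 1 fit, with a trend in the prior variance, two-sided p-values and Benjamini-Hochberg adjustment over all tested models at 0.05. The script was tested on simulated data. The members and lists were chosen with earlier results of these data known. Members named in the text are the 10 highest in vegetal hemispheres, the extremes of the ratio of whole embryos to vegetal hemispheres and of the coefficient of variation, those nearest each limit, the highest neighbours and shared matches, those with protein records and those at 0 in animal hemispheres; other names were chosen after their values were seen. Replicate numbers come from the labels. Deviations of same-numbered libraries from their group means correlated across genes at 0.126 to 0.583 in the 5 comparisons, each over 0.1. Same-numbered libraries were therefore treated as pairs in a replicate block, which was an alternative. The main fit, which gave the counts and p-values above, held no block. With the block, 913 models were called vegetal-higher and 911 vegetal-lower at 110 cells, against 700 and 463 in the main fit. Alternatives were other pseudocounts, filters and scalings, a replicate block, fits of the compared groups alone, and each number left out.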

Additional observations from a re-analysis of the deposited data

Results flagged for a closer look

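For each named member and each list sum, the 4 libraries of a group were checked for a library standing far from the others (Dixon's ratio). Of 189 groups, 24 were picked out. The rate of about 1 in 20 by chance holds for normally distributed values only. A group with all libraries but 1 at 0 always gives the highest ratio, and some named members were picked for extreme values. The count can therefore not be judged against that rate, and no excess is read from it. No cause was tested.

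Most were members at or near 0 in animal hemispheres with 1 animal library above it. The high animal library stood at 2.35 RPKM for S575.g13659 (others 0 to 0.259), 0.665 for S196.g08088, 0.763 for S288.g01101, 0.224 for S128.g13119, 0.248 for S124.g07248, 1.21 for S145.g10427 and 1.04 for S1.g06881. It stood at 1.01 RPKM for S1.g06477, 0.617 for S45.g15766, 1.01 for S153.g16075, 0.982 for S110.g11566 and 0.462 for S81.g04498, and in all of these except S575.g13659 the other animal libraries were listed at 0. For S49.g09624 it was 1.31 RPKM (others 0.141 to 0.320). In S2456.g03490 number 2 stood alone in each region, at 14.6 RPKM in whole embryos, 29.7 in vegetal and 6.26 in animal hemispheres, with all others at 0.

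In vegetal hemispheres, S420.g05435 had a low library at 62.3 RPKM (others 76.1 to 78.3), S49.g09624 a high one at 12.8 RPKM (1.62 to 3.06) and S104.g11931 a high one at 28.6 RPKM (2.31 to 4.25). In whole embryos, S196.g08088 had a high library at 0.849 RPKM (others 0), S81.g02871 at 7.57 RPKM (2.58 to 3.13) and S27.g04253 at 6.48 RPKM (1.48 to 2.02), and S173.g15175 a low one at 5.11 RPKM (10.6 to 11.7). The number of members listed at 0 was 1 in the vegetal library of number 5 and 2 in the other 3.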

How the results depend on the processing

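The members called higher in vegetal than in animal hemispheres at 110 cells numbered 235 and, without each replicate in turn, 217 to 227. Members called higher in whole embryos than in animal hemispheres numbered 190 (157 to 171). With the replicate block these counts were 242 and 202, and it moved no count of members by over 1.5 times. Members called lower in whole embryos than in vegetal hemispheres numbered 99, and 44 to 70 without a replicate, 118 with the replicate block, 13 with a pseudocount of 0.1 and 32 in a fit of the compared groups alone. Members called higher at 110 cells in animal hemispheres numbered 33, and 14 to 36 without a replicate, 48 with the replicate block, 62 with a pseudocount of 0.1 and 17 in a fit of the compared groups alone, where 25 were tested. Leaving out a replicate also leaves fewer libraries, and the causes of the other shifts were not tested. The rule itself gave 157 members with a level limit of 10 RPKM, and 236 to 271 without a replicate. Of 56 named members tested, 52 were called vegetal-higher. Over 11 alternatives their 598 values kept direction and call in 579, lost the call in 17, gained it in 1 and reversed in 1, S4.g11169, whose log2 difference was -0.0577 without replicate 4 (limma adjusted p = 0.988) and 0.769 to 1.66 without each of the other replicates, against 1.76 with a pseudocount of 0.1. Its adjusted p ran from 0.228 to 0.988 over the alternatives. The count of 0 members called between hemispheres at 8 cells, also 0 with the replicate block, follows a rule that limits 8-cell levels and is no sign of stability; in a fit of the compared groups alone 1 member was tested. Depth limits statements on members in 8-cell and animal libraries, where most are near the floor of 3 reads.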
